A study of Mus musculus with 18 samples.

Results

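Expression of the transcription factor Myc and of 48 further genes was followed across young, old and rejuvenated old mesenchymal stem cells (MSCs). The further genes were Max and Mxd4 of the Myc network and 46 factors of ribosome biogenesis, taken from a list of gene names. All 49 were found among the 27179 rows of the table, and all 49 were among the 14353 genes that were tested because their mean over the 18 libraries was at least 10 normalized counts. The lowest mean of a member was 590 normalized counts, and the fewest reads that a member had in any library were 319. MSCs are adherent stromal cells grown out of bone marrow, here of male C57BL6 mice aged 6 weeks (young) or 18 to 24 months (old). There were 6 libraries each of young MSCs, of old MSCs cultured alone for 7 days at 100000 cells, and of rejuvenated old MSCs, meaning old MSCs kept for those 7 days in one well with young MSCs on the far side of a 0.4 µm Transwell membrane. The membrane passes soluble factors and holds back cells. The young libraries were of day 7 as well. No library of old MSCs cultured beside other old MSCs was used here, so for old MSCs cultured with and without young MSCs, the company of any further cells and the youth of those cells cannot be told apart. The labels call the libraries biological replicates but tie none to an animal, so the p-values measure the spread between these cultures. The libraries held 22936251 to 29559194 reads on genes. A value is a normalized count, the number of reads of a gene over the size factor of its library, and a log2 fold change is the difference of group means of log2(normalized count + 1).

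Myc is a basic helix-loop-helix leucine zipper protein that binds DNA as a dimer with Max, most strongly at the E-box CACGTG, and its best known targets are the genes for making ribosomes. The Mxd proteins, Mxd4 among them, also pair with Max and repress from the same sites. A ribosome starts in the nucleolus, where RNA polymerase I transcribes the ribosomal RNA precursor, small nucleolar RNPs modify it, and separate sets of assembly factors cut and fold it into the small and the large subunit.

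The stromal collagen genes Col1a1 and Col1a2 had at least 66320 normalized counts in every library. Rejuvenated old MSCs had less of both than old MSCs, Col1a1 at -0.41 on the log2 scale and Col1a2 at -0.38. Of 10 stromal markers 2 rose and 5 fell in rejuvenated old relative to old MSCs, and 5 were higher and 5 lower in young than in old MSCs. Over all genes tested 21.0% were higher and 20.6% lower in the former comparison, and 41.6% and 44.1% in the latter. The summed level of the 10 stromal markers was 249305 to 265933 normalized counts in old, 193441 to 226087 in rejuvenated old and 313179 to 339642 in young MSCs, without overlap. The part of this sum in the values of the members was not tested. Among the 5 stromal markers that were higher in young MSCs, Thy1 (CD90) was nearly absent from old MSCs, with 1.19 ± 1.24 normalized counts (SD, n = 6) against 198 ± 23.1 in young MSCs, and Nt5e (CD73) had 15.9 ± 3.83 against 295 ± 26.7. Among the 5 that were lower in young MSCs were Eng (CD105), with a log2 fold change of -5.48, and Vcam1 (-2.79). Of the macrophage markers that define the type, Ptprc (CD45) and Adgre1 (F4/80) had 0 reads in all young libraries, against 162 to 208 and 243 to 333 normalized counts in old MSCs and 122 to 171 and 218 to 325 in rejuvenated old MSCs. The summed level of 10 macrophage markers was 948 to 1068 in young, 13161 to 16398 in old and 13001 to 15877 in rejuvenated old MSCs. Of these markers 1 rose and 1 fell in rejuvenated old MSCs, whereas 9 of 10 were lower and 1 was higher in young than in old MSCs. Each comparison with young MSCs therefore runs alongside this difference in macrophage transcripts, whose part in the values of the members was not tested. In bulk RNA, fewer cells of a type and less RNA per cell cannot be told apart. Of 6 endothelial markers 3 were tested, and all 3 were higher in young than in old MSCs. In rejuvenated old against old MSCs 1 of the 3 was higher and 1 lower. Cd34 made up nearly all of the sum of the 6 in young MSCs (6787 to 7191 normalized counts in young, 19.4 to 28.0 in old MSCs). Kdr had 68.2 to 106 in young and at most 19.7 in old MSCs, and Pecam1 11.7 to 22.9 in young and 2.73 to 9.85 in old MSCs. Cdh5 and Emcn had at most 4 reads in any library. Rejuvenated old replicate 1 stood apart with 402 normalized counts of Cd34, and it also held 1.97% of the young level over 23 genes that are high in young MSCs (mean of at least 1000) and low in old MSCs (at most 20), against 0.198% to 0.263% in the other 5 rejuvenated old libraries and 0.123% to 0.178% in old MSCs. These 23 genes were chosen after their values were seen, and results are also given without that library.

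Myc transcripts were lowest in old MSCs, higher in rejuvenated old MSCs and highest in young MSCs, and the libraries of the groups did not overlap. The Myc gene (chr15:61985341-61990361, GRCm38) had 980.3 to 1307 (median 1051) normalized counts in old, 2027 to 2502 (median 2249) in rejuvenated old and 3038 to 3503 (median 3288) in young MSCs. Rejuvenated old exceeded old MSCs 2.09-fold (log2 fold change 1.06, SE 0.0626, limma adjusted p = 8.61e-12), and without rejuvenated old replicate 1 the log2 fold change was 1.03. Young MSCs exceeded old MSCs 2.98-fold (log2 fold change 1.57, SE 0.0626, limma adjusted p = 1.21e-16) and rejuvenated old MSCs 1.43-fold (log2 fold change 0.51, SE 0.0626, limma adjusted p = 8.38e-08). Of the 49 members Myc had the largest increase in rejuvenated old against old MSCs and in young against old MSCs. On its chromosome 15 the median gene tested was also higher in young than in old (0.20) and than in rejuvenated old MSCs (0.21). Minus these medians, the log2 fold changes of Myc were 1.38 and 0.30.

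Mxd4, the repressor of this network, showed the opposite order of groups. Its normalized counts were 1601 to 1871 (median 1706) in old, 1225 to 1362 (median 1287) in rejuvenated old and 356 to 484 (median 433) in young MSCs, again with no overlap. It fell in rejuvenated old MSCs (log2 fold change -0.41, SE 0.0625, limma adjusted p = 1.75e-05) and was lower in young than in old MSCs (log2 fold change -2.01, SE 0.0625, limma adjusted p = 1.19e-18). The young libraries also lay below the rejuvenated old ones (log2 fold change -1.60, SE 0.0625, limma adjusted p = 9.27e-17). The exons of Mxd4 share 514 bases with Gm42846 on the opposite strand; the library kit keeps strand, but the strand setting of the counting is not stated. In all, 17 members share exon bases with a gene on the opposite strand and 0 with one on the same strand.

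Max, the shared partner, differed little between both kinds of old MSCs, with 3138 to 3426 (median 3306) normalized counts in old and 3286 to 3535 (median 3421) in rejuvenated old MSCs. That difference did not pass the test (log2 fold change 0.06, SE 0.0286, limma adjusted p = 0.129, 95% interval -0.00 to 0.11). In young MSCs Max was at 2147 to 2296 (median 2201), below every other library, and fell short of old MSCs (log2 fold change -0.58, SE 0.0286, limma adjusted p = 8.28e-15). Max lies on chromosome 12, where the median gene tested was also lower in young MSCs (log2 fold change -0.46), and centred on the genes of its chromosome the value for Max was -0.12.

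**Figure D1:**
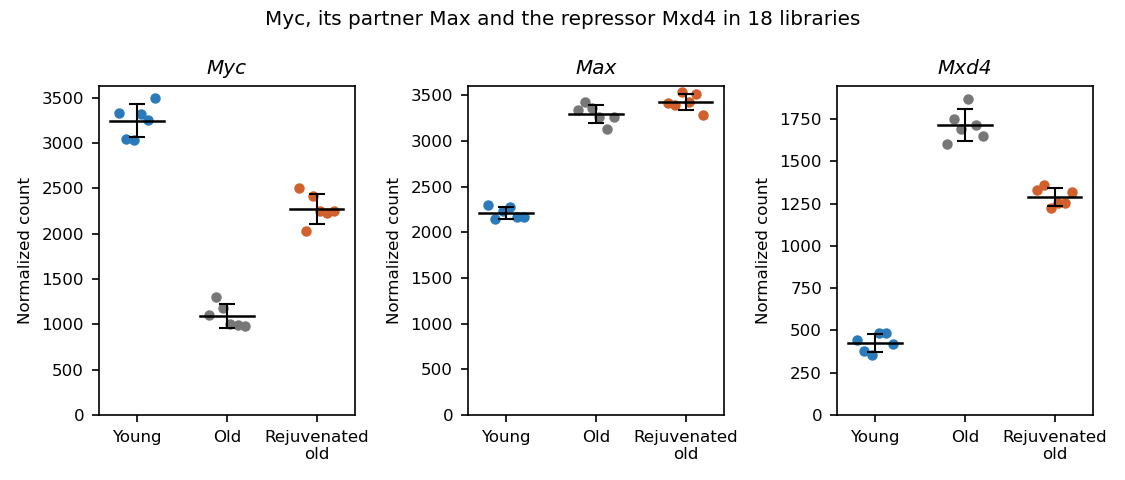
Normalized counts of Myc, Max and Mxd4 (vertical axes, each from 0) in the 6 libraries of young, old and rejuvenated old MSCs; points are libraries and bars are the mean and SD. Myc separates all 3 groups, with rejuvenated old libraries at 2027 to 2502 between old (980.3 to 1307) and young libraries (3038 to 3503), Mxd4 runs the other way, and Max is lowest in young MSCs.

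The E-box of Myc and Max was then looked for in the promoters, as a match of letters only. Binding of Myc or Max was not measured. RefSeq promoter windows (GRCm38.p6, 250 bases before to 50 bases after the start site) were matched for 41 of the 49 members. The windows of Myc, Tcof1, Npm1, Fbl, Rrp12, Nol6, Rrs1 and Bop1 are not analysed here. The letters CACGTG, which read the same on both strands, were in the windows of 10 of the 41 members (24.4%), against 11.5% of the 10951 genes tested that had a window and 8.09% of all 27025 genes with one. Counted by window, 10 of 50 (20.0%) of the members' windows and 7.15% of all 32851 windows held it. The matches are shown with the motif in capitals and up to 10 bases on each side, read 5′ to 3′ on the strand of the gene and ordered by the log2 fold change of rejuvenated old against old MSCs, since this set holds both regulators that pair with each other, Max and Mxd4, beside ribosome factors that rose and one that fell.
Nop2: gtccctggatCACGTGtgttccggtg
Wdr43: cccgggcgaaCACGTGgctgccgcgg
Utp18: gagcgccggtCACGTGgcttgcggcg
Pes1: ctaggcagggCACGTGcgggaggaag
Utp4: cgcaagcgcgCACGTGgggccggggc
Max: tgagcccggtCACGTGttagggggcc
Imp4: ggtcttagacCACGTGacatcccaaa
Rrn3 (nearer match): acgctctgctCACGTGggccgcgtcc
Rrn3 (farther match): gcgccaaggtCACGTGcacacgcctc
Utp20: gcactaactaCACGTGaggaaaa
Mxd4: gctgggccacCACGTGctgttgctaa

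The windows lie at chr6:125131633-125131932, plus strand (Nop2), chr17:71615965-71616264, plus strand (Wdr43), chr11:93885717-93886016, minus strand (Utp18), chr11:3963725-3964024, plus strand (Pes1), chr8:106893390-106893689, plus strand (Utp4), chr12:76962199-76962498, minus strand (Max), chr1:34439579-34439878, plus strand (Imp4), chr16:13780449-13780748, plus strand (Rrn3), chr10:88826765-88827064, minus strand (Utp20) and chr5:34187661-34187960, minus strand (Mxd4). In Max the first base of the motif was 3 bases before the start site, whereas in Mxd4 it was 219 bases before it. The motif of Nop2 began 60 bases before the start and that of Utp18 20 bases before, while in Wdr43, Utp4, Pes1 and Utp20 it began after the start site. Rrn3, which codes for the initiation factor that brings RNA polymerase I to the ribosomal genes, had 2 matches, 48 and 215 bases before the start.

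Members with the motif did not move as a block. In rejuvenated old against old MSCs, 4 of the 10 were higher (Nop2, Wdr43, Utp18 and Pes1) and 2 were lower (Utp20 and Mxd4), with a median log2 fold change of 0.06. Over all genes tested 21.0% were higher and 20.6% lower. Of the 31 members with a window but no motif, 22 were higher and 0 lower, with a median of 0.18. In young against old MSCs 5 members with the motif were higher and 5 lower, and without it 25 were higher and 3 lower. Of the 5 lower members with the motif, Imp4, Max and Rrn3 lie on chromosomes 1, 12 and 16, whose median genes were also lower in young MSCs. Minus the chromosome median, Imp4 was at 0.17, Max at -0.12, Rrn3 at -0.30, Utp20 at -0.31 and Mxd4 at -1.99. On that scale the 5 higher members ran from 0.24 (Pes1) to 1.05 (Wdr43). In that comparison 41.6% of all genes tested were higher and 44.1% lower. The counts of members with and without the motif describe which windows hold the letters and were not tested.

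In rejuvenated old against old MSCs, 31 of the 49 members were higher at an adjusted p under 0.05 (limma, adjusted over all 14353 genes), where 21.0% of all genes tested were higher. Only Mxd4 and the small subunit factor Utp20 were lower, 2 of 49, where 20.6% of all genes tested were lower. The median log2 fold change of the members was 0.17, against 0.01 over all genes tested. For 20 members each rejuvenated old library exceeded each of the old ones, which held for 10.4% of all genes, and for 2 members each was below, which held for 11.6%. Beyond Myc and Mxd4 the changes were small, with log2 fold changes from -0.22 to 0.54 among the 46 ribosome biogenesis members. Of the 31 higher calls, 27 held in every alternative at this threshold. The other 4 were Nhp2, Utp18, Nop16 and Polr1b, whose adjusted p rose to between 0.0708 and 0.125 when single libraries were left out, and Nop16 also lost its call under 5 further alternatives, equal totals among them (adjusted p = 0.0639 by limma). Those libraries were old replicates 1, 3, 4 and 5 and rejuvenated old replicates 3 and 5 for Nhp2, with a log2 fold change of at least 0.11. For Utp18 they were old replicates 1, 4 and 6 and rejuvenated old replicates 1 and 2, with at least 0.13, and for Polr1b old replicates 4 and 5 and rejuvenated old replicates 1, 2 and 3, with at least 0.14. The call of Nop16 was lost without any one of old replicates 2, 3, 5 and 6 and rejuvenated old replicates 1 to 5, with at least 0.10. Without rejuvenated old replicate 1, the library that stood apart, 29 members were higher and 3 lower.

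**Figure D2:**
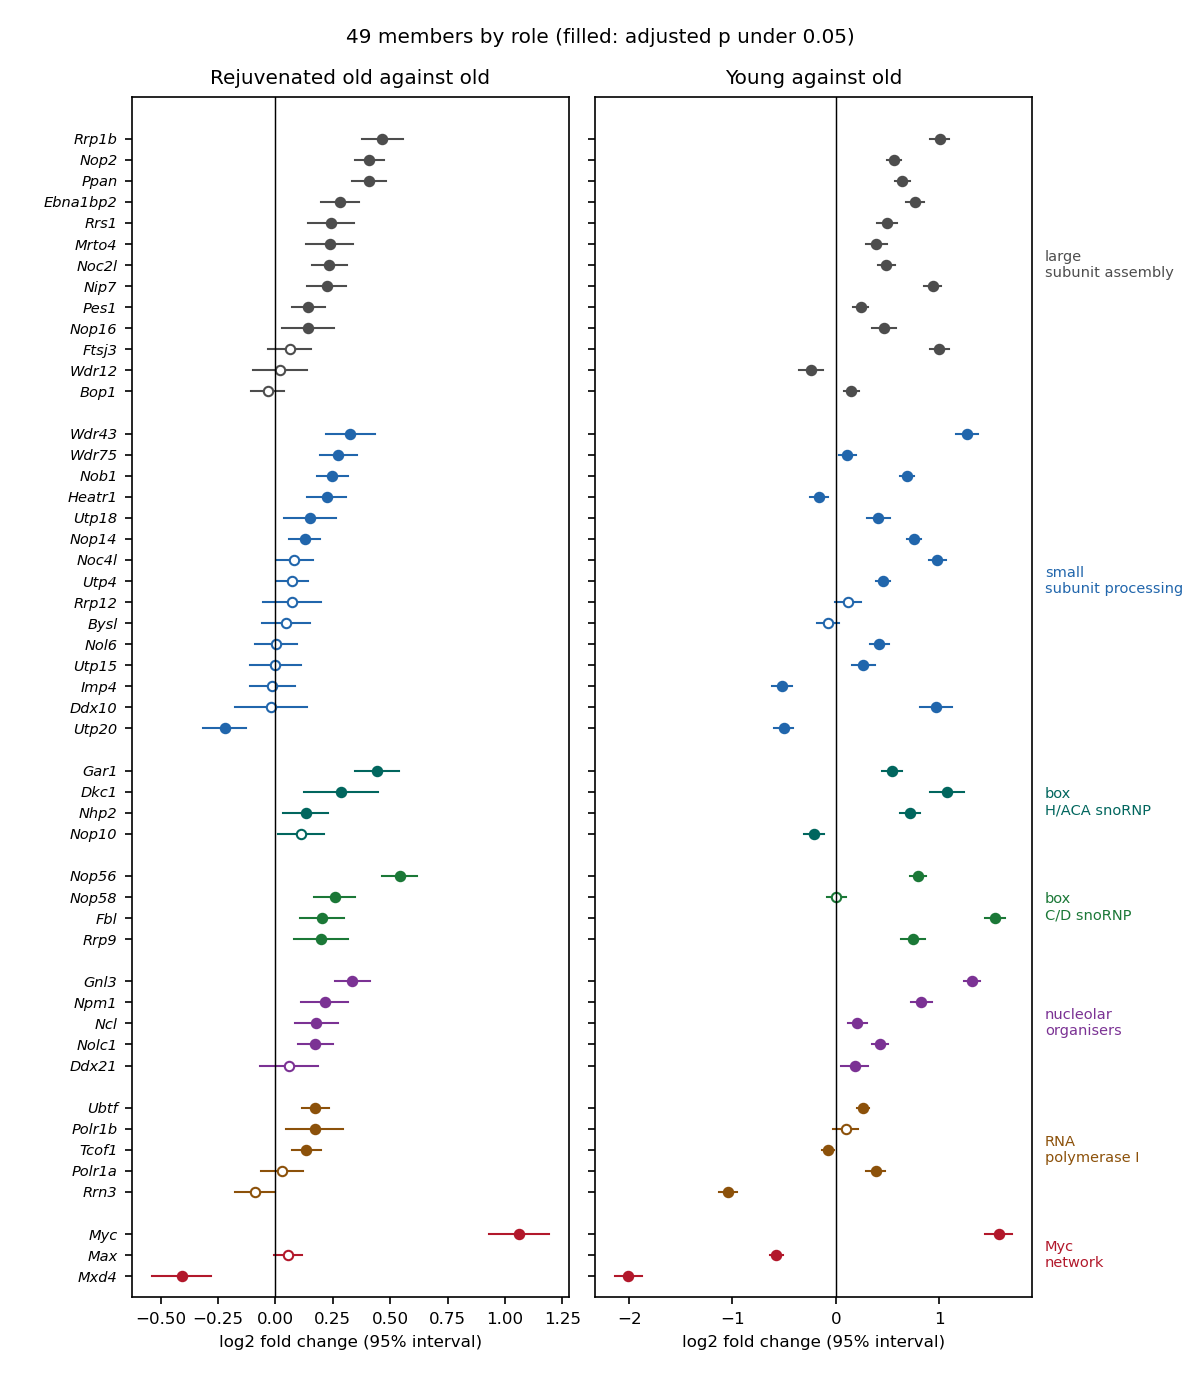
Log2 fold change with its 95% interval (horizontal axes) of the 49 members, grouped by role and ordered within each role by the left panel, for rejuvenated old against old MSCs (left) and young against old MSCs (right, wider scale); filled points have an adjusted p under 0.05. On the left 31 points are filled above 0 and 2 below it, and on the right 36 above and 9 below.

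The box C/D small nucleolar RNPs guide methylation of ribosomal RNA. All 4 of their proteins among the members were higher in rejuvenated old than in old MSCs (21.0% of all genes tested). Nop56, a core scaffold of these particles, had the largest change of the 46 ribosome biogenesis members. Its normalized counts were 2078 to 2348 (median 2236) in old, 3037 to 3414 (median 3286) in rejuvenated old and 3762 to 4068 (median 3816) in young MSCs. No libraries of these 3 groups overlapped (log2 fold change 0.54, SE 0.0373, limma adjusted p = 1.34e-10 for rejuvenated old against old; 0.80, adjusted p = 2.63e-15 by limma for young against old). Its partner Nop58 also rose in rejuvenated old MSCs, from 2521 to 3009 (median 2723) to 3053 to 3528 (median 3318) (log2 fold change 0.26, SE 0.0433, limma adjusted p = 5.15e-05). In young MSCs Nop58 was at 2626 to 2901 (median 2791), within the span of old MSCs (log2 fold change 0.00, 95% interval -0.09 to 0.09). Nop58 lies on chromosome 1, where the median gene tested was lower in young MSCs (log2 fold change -0.69), and centred on the genes of that chromosome its value was 0.70 (adjusted p = 6.58e-13 by limma). Fbl, the methyltransferase fibrillarin, showed the reverse weighting. It went from 756 to 846 (median 799.6) in old to 819 to 1009 (median 920) in rejuvenated old MSCs (log2 fold change 0.20, SE 0.0456, limma adjusted p = 0.00109), and stood at 2197 to 2449 (median 2318) in young MSCs (2.91-fold over old, adjusted p = 4.31e-19 by limma). Rrp9, the protein specific to the U3 particle, had the smallest of the 4 differences between rejuvenated old and old MSCs (log2 fold change 0.20, SE 0.0561, limma adjusted p = 0.00655), and its libraries overlapped at 481 to 562 and 507 to 663.

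The box H/ACA proteins direct the change of uridine to pseudouridine. Of these, 3 of 4 were higher in rejuvenated old than in old MSCs (21.0% of all genes tested). Gar1 rose most, from 737 to 790.3 (median 771) in old to 933 to 1127 (median 1057) in rejuvenated old MSCs, with no overlap (log2 fold change 0.44, SE 0.0467, limma adjusted p = 1.06e-07). The level in young MSCs was 1043 to 1197 (median 1112), so the rejuvenated old libraries overlapped the young ones. Gar1 was higher in young than in rejuvenated old MSCs at the edge of the threshold (log2 fold change 0.10, SE 0.0467, limma adjusted p = 0.0467), and that call was lost when any one of 12 of the 18 libraries was left out, with an adjusted p of up to 0.147. Dkc1, the pseudouridine synthase dyskerin, had 596 to 765 (median 649) normalized counts in old and 682 to 989 (median 788) in rejuvenated old MSCs (log2 fold change 0.28, SE 0.0777, limma adjusted p = 0.00527). In young MSCs it reached 1310.2 to 1574 (median 1373), above every other library (2.11-fold over old). Nop10, the smallest core protein, did not pass the test in rejuvenated old MSCs (log2 fold change 0.11, SE 0.0480, limma adjusted p = 0.0638; 1796 to 2069.7 in old and 1869 to 2336 in rejuvenated old MSCs). It was lower in young than in old MSCs (log2 fold change -0.21, SE 0.0480, limma adjusted p = 3.39e-04), at 1576 to 1796 (median 1648). The highest young library (1795.96) all but equalled the lowest old library (1795.97).

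In large subunit assembly 10 of 13 members rose in rejuvenated old MSCs (76.9%), where 21.0% of all genes tested were higher. For 8 of these 10 each rejuvenated old library exceeded each old one, which held for 10.4% of all genes. No other role had more members that rose, but the share was higher for box C/D proteins (100%) and nucleolar organisers (80.0%). The median log2 fold change of the 13 was 0.24. Rrp1b, a nucleolar assembly factor, led with 519 to 574 (median 568) normalized counts in old, 719 to 868 (median 769) in rejuvenated old and 1099 to 1165 (median 1118) in young MSCs. Its libraries formed 3 separate groups (log2 fold change 0.47, SE 0.0433, limma adjusted p = 1.53e-08 for rejuvenated old against old; 1.00 for young against old, adjusted p = 5.74e-16 by limma). Ppan, which acts in early maturation of the large subunit and had the highest level per kilobase of transcript of this role, rose from 1731 to 1879 (median 1812) to 2193 to 2571 (median 2387) (log2 fold change 0.41, SE 0.0356, limma adjusted p = 5.87e-09) and was at 2718 to 2939.8 (median 2814) in young MSCs. Nop2, Ebna1bp2, Rrs1, Noc2l, Mrto4, Nip7, Pes1 and Nop16 were the other members that rose, with log2 fold changes from 0.14 to 0.41.

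The PeBoW complex is made of Pes1, Bop1 and Wdr12 and is needed to process the large subunit RNA. Pes1 rose in rejuvenated old MSCs (log2 fold change 0.14, SE 0.0340, limma adjusted p = 0.00171), with 2529 to 2730.4 (median 2640) normalized counts in old and 2749 to 3033 (median 2912) in rejuvenated old MSCs. Bop1 did not pass the test (log2 fold change -0.03, SE 0.0347, limma adjusted p = 0.467), and its libraries of both kinds overlapped at 2080.3 to 2231 and 1931 to 2291. Wdr12 did not pass it either (log2 fold change 0.02, SE 0.0563, limma adjusted p = 0.815, 95% interval -0.10 to 0.14). It had 741 to 853 normalized counts in old and 758 to 884 in rejuvenated old MSCs. In young MSCs Pes1 and Bop1 were higher than in old MSCs (log2 fold changes 0.24 and 0.15). Wdr12, on chromosome 1, was lower (log2 fold change -0.24, SE 0.0563, limma adjusted p = 3.77e-04), at 584 to 772 (median 692) normalized counts. Minus the medians of their chromosomes these values were 0.24 for Pes1, -0.05 for Bop1 and 0.45 for Wdr12, so the signs of Bop1 and Wdr12 turned. Ftsj3, a ribosomal RNA methyltransferase, was close in both kinds of old MSCs (2156 to 2447 and 2217 to 2614; 0.06, adjusted p = 0.287 by limma) and at 4400.5 to 4809 (median 4678) in young MSCs, 2.00 times the level of old MSCs.

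Of the 15 small subunit processing factors, 6 rose and 1 fell in rejuvenated old MSCs, with a median log2 fold change of 0.07. Over all genes tested 21.0% were higher and 20.6% lower. Wdr43, a subunit of the complex that first binds the ribosomal RNA precursor, rose most, from 1285 to 1524 (median 1436) to 1629 to 2051 (median 1735) (log2 fold change 0.33, SE 0.0507, limma adjusted p = 2.04e-05), and stood at 3312 to 3678 (median 3409) in young MSCs (2.41-fold over old). Wdr75, Heatr1 and Utp18, which belong to the same large particle, and Nob1, the nuclease that makes the final cut of the small subunit RNA, and Nop14 were the others that rose, with log2 fold changes from 0.13 to 0.27. Utp20, a large scaffold protein of this particle, fell. Its normalized counts were 2208 to 2302 (median 2251) in old, 1653 to 2144 (median 1956) in rejuvenated old and 1483 to 1689 (median 1603) in young MSCs. The old libraries lay above all others (log2 fold change -0.22, SE 0.0451, limma adjusted p = 4.32e-04 for rejuvenated old and -0.50, adjusted p = 4.35e-10 by limma for young against old). Imp4, which helps the U3 RNA pair with the precursor, overlapped in old and rejuvenated old MSCs (814 to 910.3 and 777 to 946; -0.01, adjusted p = 0.852 by limma). In young MSCs it had 578 to 634 (median 602) normalized counts, below every other library (log2 fold change -0.52, SE 0.0470, limma adjusted p = 5.38e-10). Utp4, with the highest level per kilobase of this role, did not pass the test in rejuvenated old MSCs (log2 fold change 0.07, SE 0.0330, limma adjusted p = 0.0795) and was higher in young than in old MSCs (0.46, adjusted p = 9.57e-12 by limma). Nol6, Utp15, Rrp12, Bysl, Noc4l and Ddx10 did not pass the test either, with log2 fold changes from -0.02 to 0.08.

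RNA polymerase I and its factors had 3 of 5 members higher in rejuvenated old MSCs and 0 lower. Of all genes tested 21.0% were higher and 20.6% lower. Ubtf, the factor that holds the ribosomal genes open, rose from 5056 to 5518 (median 5305) to 5717 to 6347 (median 5966) without overlap (log2 fold change 0.17, SE 0.0285, limma adjusted p = 3.78e-05), and was at 6192 to 6534 (median 6345) in young MSCs. Tcof1, the nucleolar protein treacle, also rose without overlap (log2 fold change 0.14, SE 0.0301, limma adjusted p = 9.71e-04), and Polr1b, a subunit of the catalytic core, rose with overlap (log2 fold change 0.17, SE 0.0594, limma adjusted p = 0.0252). Polr1a, the largest subunit, did not pass the test in rejuvenated old MSCs (log2 fold change 0.03, SE 0.0441, limma adjusted p = 0.661), and at 3386 to 3755 (median 3648) in young MSCs exceeded all old libraries (2625 to 2892). In young against old MSCs 2 of the 5 were higher and 2 lower, where 41.6% and 44.1% of all genes tested were. The 2 lower members were Tcof1 (log2 fold change -0.08) and Rrn3. The difference of Rrn3 was the largest of this role. It had 2528 to 2718 (median 2606) normalized counts in old and 2257 to 2659 (median 2501) in rejuvenated old MSCs (log2 fold change -0.09, SE 0.0417, limma adjusted p = 0.0953), a difference that did not pass the test with all libraries and did without rejuvenated old replicate 1 (adjusted p = 0.0382 by limma) or with equal totals (adjusted p = 0.0440 by limma). In young MSCs its 1211 to 1349 (median 1276) normalized counts were about 0.485 times the level of old MSCs (log2 fold change -1.04, SE 0.0417, limma adjusted p = 1.32e-16). Centred on the genes of chromosome 16, this fold change was -0.30.

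Of the nucleolar organisers 4 of 5 were higher in rejuvenated old than in old MSCs (21.0% of all genes tested) and all 5 in young than in old MSCs (41.6% of all genes tested). Npm1, the abundant nucleolar chaperone nucleophosmin, had the highest level per kilobase of all members, 7114 normalized counts per kilobase in old, 8245 in rejuvenated old and 12583 in young MSCs. In normalized counts its old libraries (10282 to 12509 (median 11865)) and rejuvenated old libraries (12299 to 14344 (median 13552)) overlapped slightly (log2 fold change 0.22, SE 0.0493, limma adjusted p = 0.00124), while the young libraries (19188 to 21796 (median 20711)) lay apart. Gnl3, the GTPase nucleostemin, rose from 1554 to 1710.3 (median 1633) to 1914 to 2236 (median 2071) (log2 fold change 0.33, SE 0.0368, limma adjusted p = 1.91e-07) and was at 3945 to 4257 (median 4038) in young MSCs, 2.49-fold over old MSCs. Ncl, nucleolin, had 15928 to 18969.9 (median 17821) in old, 18379 to 21429.8 (median 19822) in rejuvenated old and 19264 to 21494 (median 20085) in young MSCs. The rejuvenated old and young libraries of Ncl overlapped, and their difference did not pass the test (log2 fold change 0.03, SE 0.0447, limma adjusted p = 0.538, 95% interval -0.06 to 0.12). Ncl was higher in young than in rejuvenated old MSCs with the libraries scaled to equal totals (0.12, adjusted p = 0.0124 by limma), with quantile normalization (0.11, adjusted p = 0.0177 by limma) and centred on chromosome 1 (0.72, adjusted p = 5.98e-13 by limma). Nolc1, a chaperone of the small nucleolar RNPs, rose by 0.17 on the log2 scale, and the helicase Ddx21 did not pass the test (log2 fold change 0.06, SE 0.0612, limma adjusted p = 0.479).

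In young against old MSCs, 36 members were higher, where 41.6% of all genes tested were higher, and 9 were lower, where 44.1% were lower. The median log2 fold change of the members was 0.43, against -0.02 over all genes tested. All 6 young libraries lay above all 6 old libraries for 34 members, which held for 35.7% of all genes, and below for 6 members, which held for 38.2%. The largest rises after Myc were those of Fbl (1.54), Gnl3 (1.31), Wdr43 (1.27), Dkc1 (1.07), Rrp1b (1.00) and Ftsj3 (1.00). Fbl lies on chromosome 7, whose median was also higher in young MSCs (0.61), and minus that median its value was 0.93, below the 1.19 of Rrs1 and the 1.12 of Gnl3 on the same scale. The 9 lower members were Mxd4, Rrn3, Max, Imp4, Utp20, Wdr12, Nop10, Heatr1 and Tcof1, and Nop58, Bysl, Rrp12 and Polr1b did not pass the test. The call of Tcof1 was lost without old replicate 2 or old replicate 3 (adjusted p of up to 0.0571, limma, log2 fold change -0.07), with DESeq2 (adjusted p = 0.0503), and with the libraries scaled to equal totals (log2 fold change -0.0016, adjusted p = 0.961 by limma), equal 75th percentiles (-0.04, adjusted p = 0.181 by limma) or quantiles (-0.03, adjusted p = 0.343 by limma). Heatr1 lost its call with equal totals (log2 fold change -0.09, adjusted p = 0.0506 by limma). Under the same 3 scalings Rrp12 and Polr1b were higher in young than in old MSCs, with adjusted p of up to 0.0431 by limma.

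Whole chromosomes differed between young and old MSCs, and 9 members lie on 4 of them. Relative to all autosomal genes, the median log2 fold change of young against old MSCs was -0.66 on chromosome 1, 0.64 on chromosome 7, -0.43 on chromosome 12 and -0.72 on chromosome 16. The other chromosomes departed less, from -0.27 (chromosome 13) to 0.25 (chromosome 17), with 0.23 on chromosome 15, where Myc lies. Ncl, Nop58, Wdr75, Imp4, Rrs1 and Wdr12 are on chromosome 1, Fbl is on 7, Max on 12 and Rrn3 on 16. Of these 9 members 4 were higher and 4 lower in young MSCs. Of the 40 members on other chromosomes, 32 were higher and 5 lower, with a median log2 fold change of 0.48. Over all 11579 genes tested there 4967 were higher and 4847 lower, with a median of 0.01. With each gene centred on its chromosome, 42 members were higher and 6 lower, and Imp4, Wdr12, Heatr1 and Tcof1 changed from lower to higher. Between rejuvenated old and old MSCs no chromosome's median departed from the autosomes by more than 0.06, and the 9 members held 5 higher and 0 lower calls. Whether the young cultures go back to a single clone or carry another number of these chromosomes was not tested, so in the comparisons with young MSCs age and a difference of that kind cannot be told apart.

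**Figure D3:**
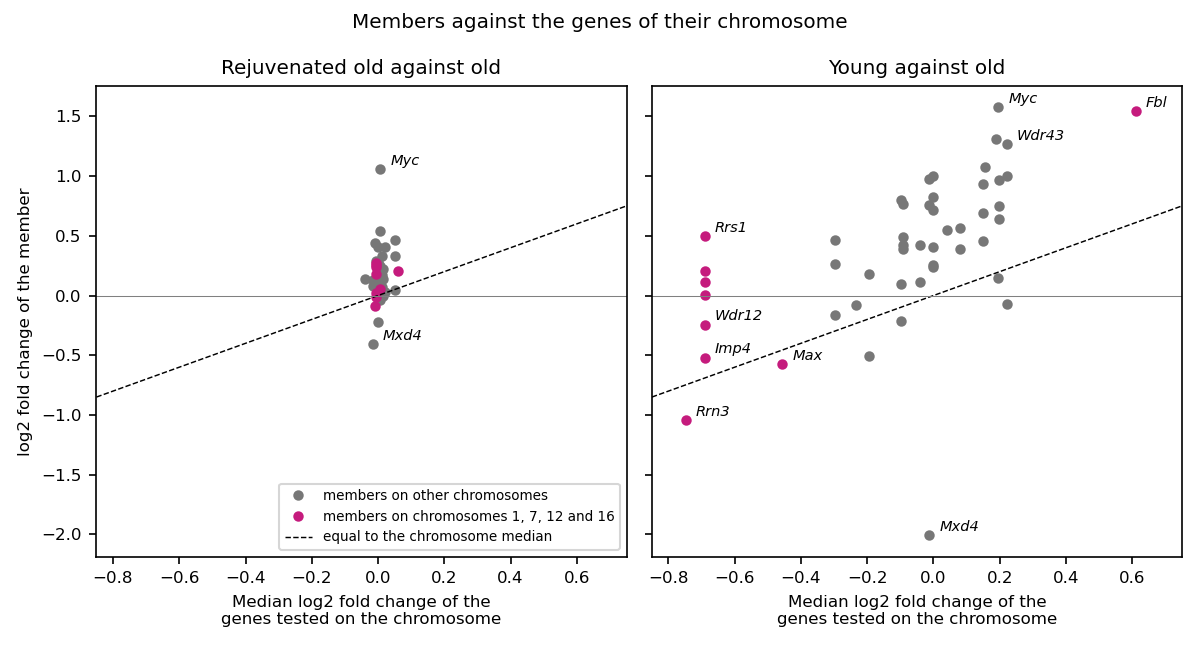
Log2 fold change of each member (vertical axis) against the median log2 fold change of all genes tested on its chromosome (horizontal axis), for rejuvenated old against old MSCs (left) and young against old MSCs (right); the dashed line marks members equal to their chromosome's median. On the left all medians lie near 0, and on the right the 9 members on chromosomes 1, 7, 12 and 16 are spread from -0.75 to 0.61 along the horizontal axis.

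Young against rejuvenated old MSCs shares libraries with both other comparisons, so its values are given beside them. Here 33 members were higher in young MSCs, where 41.5% of all genes tested were, and 12 were lower, where 44.1% were, with a median log2 fold change of 0.25 against -0.03 over all genes. The 12 were Mxd4, Rrn3, Max, Imp4, Heatr1, Nop10, Utp20, Wdr12, Nop58, Tcof1, Wdr75 and Bysl. Heatr1 and Tcof1 were higher in rejuvenated old than in old MSCs, while their lower level in young than in old MSCs was lost with equal totals and turned with centring on the chromosome. Heatr1, a processing factor that also acts in transcription of the ribosomal genes, was at 919 to 1093 (median 1041) in old, 1120.3 to 1255 (median 1188) in rejuvenated old and 876 to 943 (median 918) in young MSCs. For Tcof1 the values were 2111 to 2314, 2333 to 2583 and 2079 to 2205. Ncl, Ddx21, Rrp12 and Polr1b did not pass the test. The call of Bysl was lost without young replicates 1, 4 or 6 or rejuvenated old replicates 1, 3 or 4 (adjusted p of up to 0.112, limma, log2 fold change from -0.15 to -0.08 over the 18 libraries left out in turn), and also under the 3 other scalings, with a log2 fold change of -0.03 (adjusted p = 0.594 by limma) at equal totals. Equal totals also ended the call of Wdr75 (-0.07, adjusted p = 0.0745 by limma). Centred on the chromosome, 36 members were higher and 5 lower.

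The summed level of the 46 ribosome biogenesis members gave the same order of groups without overlap, 94818 to 102602 normalized counts in old, 105649 to 117421 in rejuvenated old and 130152 to 138849 in young MSCs. Within the rejuvenated old group the members tended to be high or low in the same libraries. Replicates 1 and 3 held the highest value of the group for 19 and 17 of the 46 members, and replicates 5 and 6 the lowest for 20 and 16. Myc was likewise highest in replicate 1 (2502) and in replicate 3 (2417), but lowest in replicate 2 (2027), and Mxd4 was lowest in replicate 3 (1225). The median departure from the group mean over the 46 members ran from -0.08 to 0.07 on the log2 scale in rejuvenated old MSCs, smaller than the median difference of 0.17 from old MSCs. Without rejuvenated old replicates 1 and 5 together, a choice made after the values were seen, 29 members were higher and 2 lower than in old MSCs.

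**Figure D4:**
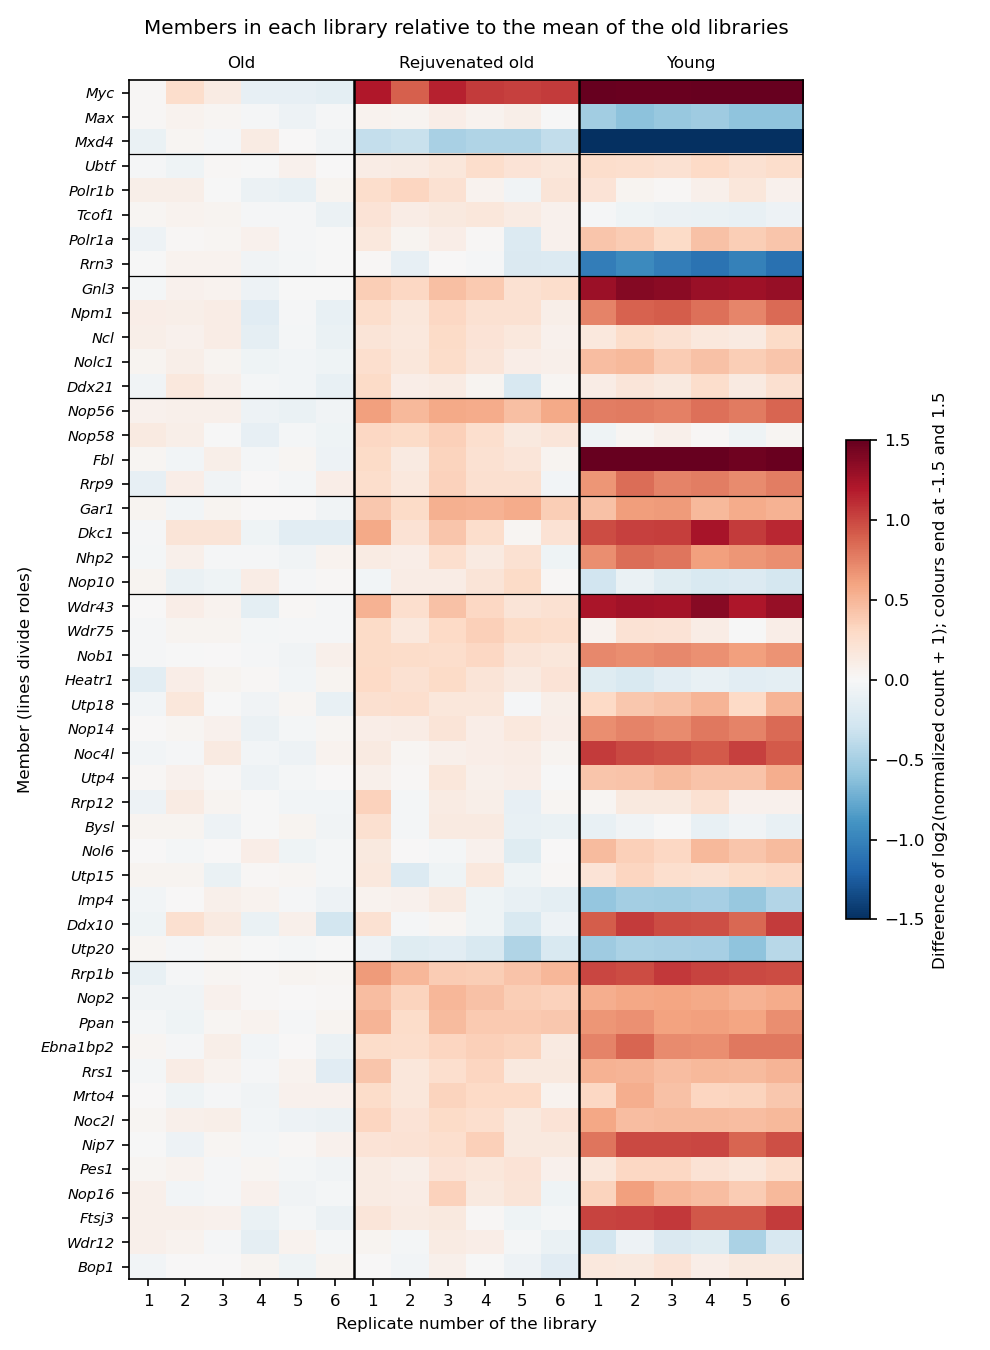
Each of the 49 members (rows, with lines between roles) in each of the 18 libraries (columns by replicate number), coloured by the difference of log2(normalized count + 1) from the mean of the 6 old libraries. Most rows are faintly red across the rejuvenated old libraries and deeper red across the young ones, whereas Mxd4 and Utp20 are blue in both and Rrn3, Max and Imp4 are blue in young MSCs.

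Lists of ribosome biogenesis factors that are not members were examined as well. In rejuvenated old against old MSCs, where 21.0% of all genes tested were higher and 20.6% lower, 18 of 37 other large subunit factors were higher and 1 lower (median log2 fold change 0.11), 12 of 35 other small subunit factors were higher and 1 lower (0.06), and 6 of 13 other RNA polymerase I genes were higher and 2 lower (0.05). Rrp15 (0.33 (SE 0.0610, limma adjusted p = 1.38e-04)), a large subunit factor, and Mphosph10 (0.44 (SE 0.0528, limma adjusted p = 6.89e-07)), a partner of Imp4 in the U3 particle, had the largest changes of the first and second list. For young against old MSCs, where 41.6% of all genes were higher and 44.1% lower, the counts were 21 higher and 9 lower of 37, 23 and 4 of 35, and 8 and 4 of 13, with medians of 0.30, 0.27 and 0.27.

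Of 8 tested genes of the Myc network that are not members, 2 were higher and 3 lower in rejuvenated old MSCs than in old ones, where 21.0% and 20.6% of all genes tested were. Between young and old MSCs 5 of the 8 were higher and 2 lower in young, where 41.6% and 44.1% of all genes tested were. Mxi1, another partner of Max that represses, was higher by 1.02 (SE 0.0708, limma adjusted p = 1.38e-10), and higher in young than in old MSCs by 1.01 (SE 0.0708, limma adjusted p = 4.89e-12), the opposite direction to Mxd4. Mxd3, of the same family, was higher in rejuvenated old MSCs by 0.48 (SE 0.0894, limma adjusted p = 1.77e-04) and lower in young than in old MSCs, at -1.24 (SE 0.0894, limma adjusted p = 8.73e-12). Mycl, a relative of Myc, differed by 0.58 (SE 0.254, limma adjusted p = 0.0706) in rejuvenated old MSCs, which did not pass the test. It was higher in young than in old MSCs by 3.00 (SE 0.254, limma adjusted p = 1.54e-10). Mnt, a repressor that also pairs with Max, was lower in rejuvenated old MSCs, at -0.21 (SE 0.0401, limma adjusted p = 2.30e-04). In young MSCs Mnt was higher than in old MSCs, at 0.40 (SE 0.0401, limma adjusted p = 3.46e-09). The family of Max partners that repress therefore had members that rose and members that fell.

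Among 16 Myc targets outside ribosome biogenesis, 5 were higher and 3 lower in rejuvenated old MSCs than in old ones. Over all genes tested 21.0% were higher and 20.6% lower. The median log2 fold change of the 16 was 0.02, against 0.01 over all genes tested. Ldha, lactate dehydrogenase, rose by 0.90 (SE 0.0408, limma adjusted p = 1.05e-13), Shmt2, an enzyme of serine and one-carbon metabolism, by 0.49 (SE 0.0524, limma adjusted p = 1.45e-07) and Srm, spermidine synthase, by 0.33 (SE 0.0520, limma adjusted p = 2.34e-05). Tfrc, the transferrin receptor, fell, at -0.43 (SE 0.0641, limma adjusted p = 1.33e-05). Between young and old MSCs 7 of the 16 were higher and 6 lower in young, where 41.6% and 44.1% of all genes tested were. Ldha (1.06), Shmt2 (1.03), Srm (0.79) and Tfrc (0.46) were among the higher. The cyclin gene Ccnd2 (-3.23) and Odc1 (-1.24), ornithine decarboxylase, were among the lower and are named after their values were seen.

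Proliferation genes and p53 targets were set beside these values, since ribosome production varies with growth. In rejuvenated old against old MSCs 21.0% of all genes tested were higher and 20.6% lower. In young against old MSCs these shares were 41.6% and 44.1%. Of 10 proliferation genes 3 were higher and 0 lower in rejuvenated old MSCs than in old ones, namely Cdk1, Top2a and Pcna. The median log2 fold change of the 10 was 0.21, against 0.17 over the members, and their summed level of 10024 to 12363 normalized counts overlapped the 8902 to 10812 of old MSCs. Between young and old MSCs 2 were higher and 6 lower in young, and the sum was 8660 to 10603. Of 10 p53 targets 2 were higher and 6 lower in rejuvenated old MSCs than in old ones (median log2 fold change -0.15), and 0 were higher and 10 lower in young than in old MSCs (median -2.93). The part of either list in the values of Myc and the ribosome biogenesis members was not tested.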

How the data were processed

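RNA from 18 cultures of mouse MSCs was sequenced after a stranded mRNA library preparation. Per the labels and the paper's methods, the authors used HISAT2 for alignment to mm10, StringTie and featureCounts for transcripts and gene counts, and DESeq2 for normalization. Versions, annotation and strand setting are not given in the sources used here. As deposited, each value is a signal, a read count over the size factor of its library, and 100% of the values came out as whole reads (tolerance 0.01 of a read), 22936251 to 29559194 per library. Low counts did not limit the members, which had at least 319 reads in every library.

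The members, roles and lists were chosen with earlier results of these data known. Values were tested with limma 3.58.1 (R 4.3.3) on log2(value + 1), with all 3 groups in one fit and the variance trend on, for the 14353 genes averaging 10 or more. Benjamini-Hochberg adjustment covered all of these genes, with a threshold of 0.05. On the recovered reads, edgeR 4.0.16 (quasi-likelihood) and DESeq2 1.42.0 served as alternatives. Further alternatives were 3 other scalings (equal totals, equal 75th percentiles, quantiles), a pseudocount of 0.5 or 10, no filter or a lowest mean of 50, fits of 2 groups, a single prior variance, a replicate block, centring on the chromosome, a threshold of 0.01 and leaving out each library. Leaving out rejuvenated old replicates 1 and 5 together was added after the values were seen.

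Named in full are Myc, Max and Mxd4 and, in each role, the member with the largest log2 fold change in each direction in both contrasts with old MSCs and the one with the highest level per kilobase. Other members were named after their values were seen. Lengths are those of the longest GENCODE vM21 transcript linked to RefSeq. Positions and promoters come from RefSeq on GRCm38.p6, the build of mm10. Python 3.11.15 with pandas 2.3.3 and matplotlib 3.10.9 was used.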

Additional observations from a re-analysis of the deposited data

Results flagged for a closer look

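Of 147 pairs of a member and a group, 1 held a library far from the others of its group. Noc2l, a large subunit factor, had 2569 normalized counts in young replicate 1, while the other 5 young libraries lay between 2362 and 2410. Chance alone flags about 1 in 20 groups. Noc2l was higher in young than in old MSCs in every fit that left out a library.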

How the results depend on the processing

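Counts of members called stayed within 1.5 times their value under the alternatives run, except for members lower in young than in rejuvenated old MSCs, which were 12 as reported and 5 with each gene centred on its chromosome. In rejuvenated old against old MSCs, 27 to 31 members were higher and 2 to 3 lower over the alternatives that kept all libraries or left out 2, and 28 to 33 were higher and 2 to 3 lower when 1 library was left out. DESeq2 and edgeR each called 31 higher and 2 lower, all of them shared with limma. In young against old MSCs the counts were 36 to 42 higher and 6 to 9 lower, and 36 to 37 and 8 to 9 without 1 library. In young against rejuvenated old MSCs they were 31 to 36 higher and 5 to 12 lower, and 32 to 33 and 11 to 13 without 1 library.

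Centring on the chromosome turned 10 single log2 fold changes, by its own construction. In young against old MSCs Tcof1 became 0.16, Heatr1 0.13, Imp4 0.17, Wdr12 0.45 and Bop1 -0.046. In young against rejuvenated old MSCs Nop58 became 0.44, Wdr75 0.53, Imp4 0.19, Wdr12 0.43 and Bop1 -0.032. No other alternative turned a called value. Over all alternatives, 78 single values lost and 33 gained their call without turning.

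The replicate number as a block gave 30 members higher and 2 lower in rejuvenated old against old MSCs, with the call of Nop16 lost, 36 and 9 in young against old MSCs and 33 and 12 in young against rejuvenated old MSCs. The numbers did not pair the libraries. Over 18 pairs with the same number the correlation of deviations from the group means was -0.15 to 0.07, and 0 libraries matched best with their own number.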
